A study of Solanum lycopersicum and Arabidopsis thaliana and Cannabis sativa with 28 samples.

Results

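Within the H3K9ac profiles of JA-treated tomato seedlings, 2291 of 17455 listed domains (13.1%) lay in stretches of the chromosomes where H3K4me3 domains are scarce and were not among the domains with the largest gain of reads after JA. These domains were chosen from the deposited values. Each had fewer than 1.6 times as many reads in the 2 h JA library as in the ctrl library, and its midpoint fell in a 1 Mb bin holding the midpoints of fewer than 10 H3K4me3 domains, here called a sparse bin. The number of H3K4me3 domains per bin and the ratio of 2 h JA to ctrl reads therefore describe how the domains were selected and are not results.

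PHILO ChIP-seq was applied to 2-week-old seedlings of Micro-Tom, a dwarf tomato variety with no further genetic change named in the labels. The ctrl seedlings were untreated, and the 2 h JA seedlings were exposed to gaseous JA in a closed container for 2 h. H3K9ac was profiled in 3 ctrl and 3 2 h JA libraries, and H3K4me3 in 3 libraries of untreated seedlings beside 3 IgG control libraries. Replicates were merged within groups before domains were called, so that each domain has a single pooled count per group, no spread between replicates can be given, and no difference between the groups was tested. Seedling tissue mixes many cell types.

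The titles of the H3K9ac libraries give their groups, whereas the treatment field of the labels reads none for all of them, and the list of libraries in the supplement of the paper gives the treatments of ctrl replicate 3 and 2 h JA replicate 3 the other way around. The log2 fold changes in the deposited table contain a constant of 0.23 for the library sizes. The totals of aligned reads gave 0.23 with the libraries grouped by title and -0.03 with replicate 3 exchanged, and the totals of uniquely aligned reads grouped by title gave 0.10. The match with the titles shows which libraries were merged under each name, not which seedlings received JA. If the constant of the exchanged totals is applied to the same counts, the 2291 domains have a median of 0.08 on the log2 scale in place of 0.34, and 572 of them are at or below 0. An exchange would also change the counts, which cannot be regrouped, so these values do not give its outcome.

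Acetylation of lysine 9 on histone H3 (H3K9ac) is a mark of active genes and of accessible regulatory regions, whereas trimethylation of lysine 4 (H3K4me3) marks the 5′ end of transcribed genes. In the JA pathway, perception of the hormone leads to degradation of JAZ repressors and frees the transcription factor MYC2, which recruits histone acetyltransferases to its target genes. Tomato chromosomes are known for gene-rich outer arms and large, repeat-rich regions around the centromeres in which genes are few. The tables hold positions and no genes, so the domains below are named by their coordinates on the SLM_r2.0 assembly as deposited.

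The sparse bins lay almost entirely in the interior of the chromosomes, as their name implies. Of 799 bins on 12 chromosomes, 411 (51.4%) were sparse, and they formed 89 runs of neighboring bins. Of these, 87 runs had a bin with more H3K4me3 on either side, and these inner runs held 2280 of the 2291 domains. The other 11 domains lay in a run of 19 Mb at the start of chromosome 2, which is not an interior by this definition. The longest run of all spanned 27 Mb of chromosome 1, from 18 to 45 Mb, and held 174 of the domains beside 106 H3K4me3 domains. The next longest, on chromosome 12 from 12 to 32 Mb, held 94 of the domains. On the remaining chromosomes the longest run measured between 11 Mb on chromosomes 10 and 11 and 19 Mb on chromosome 2.

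H3K9ac domains were thinly but broadly spread over these runs. A sparse bin held a median of 5 of the domains, with quartiles of 2 and 8.5, and 52 of the 411 sparse bins held none. Counting H3K9ac domains of any ratio, the median was 5 per sparse bin and 35 per bin elsewhere. The chromosomes differed in this. Chromosome 2 had 80 domains in 36 sparse bins, or 2.22 per bin, whereas chromosome 4 had 248 in 33, or 7.52 per bin. The low value of chromosome 2 includes the run of 19 Mb at its start, which held 11 of its 80 domains. The bin with the most domains, chosen after its value was seen, was the bin from 42 to 43 Mb on chromosome 4 with 20 domains and 9 H3K4me3 midpoints. The bins without an H3K4me3 midpoint numbered 57, and 15 of these still held an H3K9ac domain of the set, 34 domains in all.

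Relative to the number of H3K4me3 domains, H3K9ac domains were more numerous in the sparse bins than elsewhere. There were 2334 H3K9ac domains of any ratio for 1611 H3K4me3 domains in sparse bins, or 1.45 for each, and 15121 for 17147 in the other bins, or 0.88 for each. A sparse bin was selected for few H3K4me3 domains, which raises this ratio by construction, and no test was made of it. The share of H3K9ac domains at or above the ratio of 1.6, which the selection leaves out, was nearly the same in both kinds of bins, with 43 of 2334 (1.84%) in sparse bins and 279 of 15121 (1.85%) elsewhere, against 1.84% of all listed domains.

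The domains were divided into 2 kinds by overlap with listed H3K4me3 domains, and at the threshold used here their numbers were nearly equal. H3K4me3 of untreated seedlings overlapped 1200 of the 2291 domains by at least 1 bp (52.4%, 95% Wilson interval over domains 50.3-54.4%), against 69.6% of all listed H3K9ac domains. The other 1091 (47.6%) overlapped no listed H3K4me3 domain and are called domains without H3K4me3, although absence from the list is not absence of the mark. Of those with H3K4me3, 1152 overlapped a single H3K4me3 domain, 44 overlapped 2 and only 4 overlapped 3. Among domains under the ratio of 1.6 in the other bins, 73.0% overlapped H3K4me3 and 15.7% overlapped several domains of it, compared with 2.10% in the sparse bins. Since few H3K4me3 domains per bin was the criterion, these lower shares follow in part from the selection. By chromosome, the share with H3K4me3 ranged from 44.9% on chromosome 1 to 65.0% on chromosome 2.

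These 2 kinds differed in the level of H3K9ac reads in untreated seedlings. With H3K4me3, the median was 124 ctrl reads per kb of domain length, with quartiles of 92.4 and 165. Without H3K4me3, it was 48.3 ctrl reads per kb, with quartiles of 40.6 and 58.3. The median was thus 2.56 times higher with H3K4me3, and the lower quartile with H3K4me3 lay above the upper quartile without it. The same was seen outside the sparse bins, where the medians were 107 and 45.9 ctrl reads per kb, a factor of 2.34. Domains are not independent replicates, and these values come from single merged libraries. The level is a count of reads without correction by IgG, and the H3K9ac domains were called over ctrl, not over IgG. Enrichment of H3K9ac above background was therefore not tested for either kind.

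**Figure D1:**
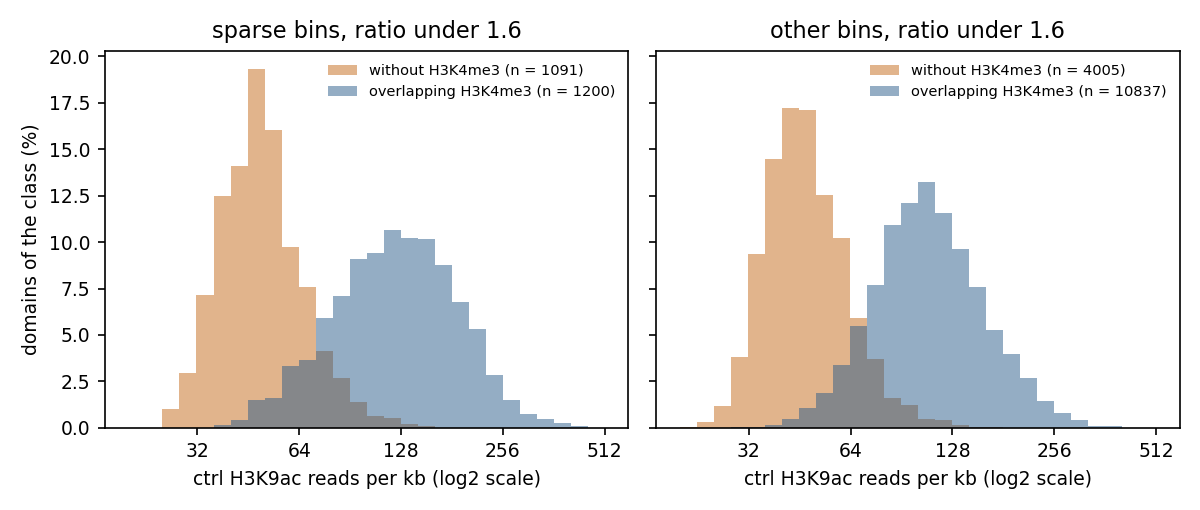
Ctrl H3K9ac reads per kb (horizontal axis, log2 scale) of domains with a ratio under 1.6, as the percentage of each class of domains (vertical axis), in sparse bins (left) and other bins (right). Domains overlapping H3K4me3 (blue) lie to the right of domains without it (orange) in both panels, with medians of 124 and 48.3 reads per kb in sparse bins.

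At its low and high ends, the level of H3K9ac in ctrl nearly sorted the domains into these kinds, whereas in between they were mixed. Among the 243 domains with fewer than 40 ctrl reads per kb, 1 overlapped H3K4me3. Between 40 and 60 reads per kb, 64 of 666 did (9.61%), and between 60 and 80 reads per kb 131 of 316 (41.5%). From 80 to 120 reads per kb the share was 86.4% of 426, and from 120 to 160 it was 98.7% of 315. All 325 domains with at least 160 ctrl reads per kb overlapped H3K4me3. Outside the sparse bins the share rose with the level as well, and was higher in the middle classes, with 19.9% from 40 to 60, 73.1% from 60 to 80 and 96.9% from 80 to 120 reads per kb.

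To place the lower level, the totals of ctrl reads were spread evenly over the 795 Mb up to the last listed domain of each chromosome. This gave 28.7 uniquely aligned or 42.6 aligned reads per kb. The median domain without H3K4me3 therefore held 1.68 times the average of uniquely aligned reads and 1.13 times that of all aligned reads, and the median domain with H3K4me3 4.31 and 2.91 times. The constant of 0.23 in the deposited table matched the totals of all aligned reads, against 0.10 from uniquely aligned reads. It reflects only the ratio of the 2 h JA and ctrl totals. Which of these factors applies to the deposited counts is therefore not settled.

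At the upper end, the domains with the highest H3K9ac read density in ctrl were short and fully inside H3K4me3. The domain with the most ctrl reads per kb lay on chromosome 5 from 25066400 to 25067399 and held 435 reads in ctrl and 439 reads after 2 h JA, or 435 and 439 reads per kb. A domain on chromosome 12 from 49417800 to 49418799 held 401 reads in ctrl and 433 reads after JA. A shorter one of 799 bp on chromosome 5 from 49496600 to 49497399 held 318 and 350 reads. All of them, and the next domains in this order on chromosome 10 from 32452400 and on chromosome 7 from 38842800, were covered to 100% by an H3K4me3 domain. The log2 fold changes of H3K4me3 over IgG there lay between 3.96 and 5.10. The ctrl H3K9ac level of these domains, between 352 and 435 reads per kb, exceeded the upper quartile of the domains with H3K4me3 more than 2-fold.

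Of the 1091 domains without H3K4me3, 62 (5.68%) reached 80 ctrl reads per kb. The 3 densest with at least 100 ctrl reads, chosen after their values were seen, were short as well. The densest, 799 bp on chromosome 12 from 35239800 to 35240599 held 121 reads in ctrl and 146 after JA, or 151 and 183 reads per kb, and lay 1.4 kb from the nearest H3K4me3 domain. On chromosome 4 from 21393600 to 21394399, 111 reads in ctrl and 145 after JA were counted 21.6 kb from H3K4me3. On chromosome 1 from 24481400 to 24482799, 178 reads in ctrl and 174 after JA were counted 285 kb from H3K4me3.

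Where H3K4me3 was present, its strength went with the level of H3K9ac. In the quartile of 300 domains with the weakest H3K4me3, at log2 fold changes over IgG of 0.59 to 3.06, the median was 85.5 ctrl H3K9ac reads per kb (binomial 95% interval of the median 79.3-91.8). In the following quartiles it was 121 and 140, and in the quartile with the strongest H3K4me3, from 4.23 to 5.61, it was 158 reads per kb (interval 151-166). Across these 1200 domains, Spearman's rho was 0.53 and Pearson's r with log2 reads per kb was 0.56. Across the 10837 domains with H3K4me3 outside the sparse bins, rho was 0.34. These correlations are across domains of merged libraries, which share the genome and its mappability, and are given as a description. The domains with the weakest H3K4me3 were also longer, with a median size of 3799 bp against 2199 bp in the strongest quartile.

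The H3K4me3 domains in question were well above IgG. A total of 1252 H3K4me3 domains overlapped the set, all with their midpoint in a sparse bin. Their median log2 fold change over IgG was 3.72, and 1234 of them (98.6%) reached 1, against 96.8% of all listed H3K4me3 domains. None had more than 200 IgG reads per kb, and the highest value was 104. For H3K9ac domains with H3K4me3, the highest IgG reads per kb of the overlapped H3K4me3 domains were close to those elsewhere. The medians were 20.01 in sparse bins and 19.79 in the other bins under the ratio of 1.6. Among all H3K4me3 domains, 42 of 1611 in sparse bins and 80 of 17147 in other bins held more than 200 IgG reads per kb.

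Domain sizes were smaller than elsewhere. The median size, taken as end minus start, was 2799 bp, with quartiles of 1799 and 4399 bp, compared with 4199 bp for domains under the same ratio in the other bins. The median was the same with and without H3K4me3 and rose to 7999 bp in the 48 domains with several H3K4me3 domains. In the other bins it was 3199 bp without H3K4me3, 3799 bp with a single H3K4me3 domain and 12399 bp with several. Domain size is part of the same epic2 calls that selected the domains, and was not tested.

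Beyond the H3K4me3 domain, the listed H3K9ac domain reached less far in the sparse bins. The edges of H3K9ac domains come from calls of 2 h JA over ctrl, and those of H3K4me3 domains from calls over IgG. The distances below compare these calls and do not measure how far either mark extends. In the 1152 domains with a single H3K4me3 domain, the median size of H3K9ac was 2799 bp and that of H3K4me3 1599 bp. H3K9ac exceeded H3K4me3 by a median of 800 bp on its longer side (quartiles 400 and 2200 bp), whereas in the other bins this was 1600 bp. On its shorter side the median was 0 bp in both. H3K9ac reached past H3K4me3 on both sides in 484 domains (42.0%) and on 1 side in 511 (44.4%), and H3K4me3 covered the whole H3K9ac domain in 157 (13.6%). The centers of the marks were a median of 400 bp apart. Without gene annotation, the direction of transcription relative to the longer side was not analysed here.

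**Figure D2:**
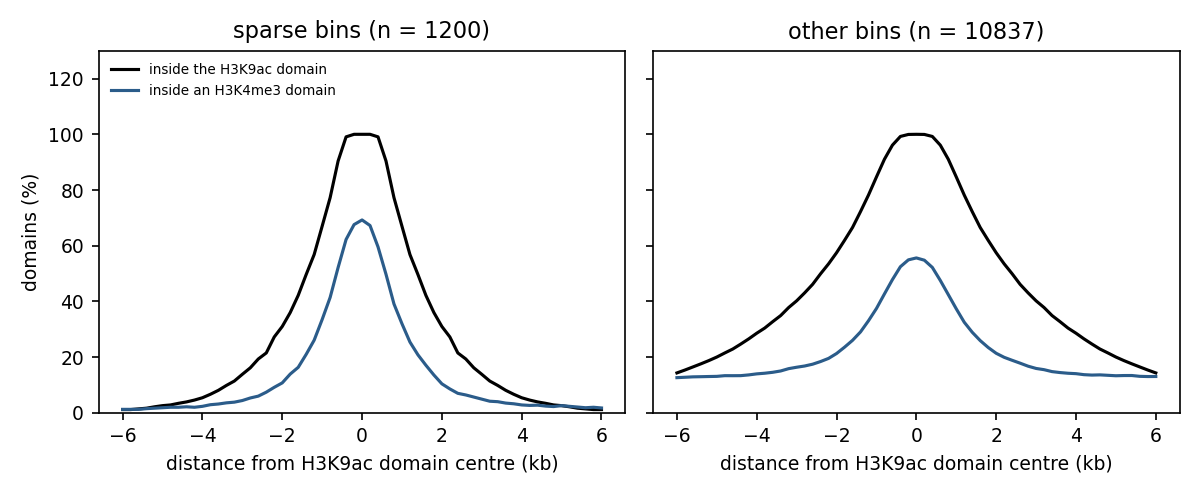
Percentage of H3K9ac domains with H3K4me3 and a ratio under 1.6 (vertical axis) in which a position lies inside the H3K9ac domain (black) or inside any H3K4me3 domain (blue), by distance from the center of the H3K9ac domain in kb (horizontal axis), in sparse bins (left) and other bins (right). At 2 kb to the right of the center, 31.0% of the domains in sparse bins and 57.5% of those in other bins were still inside H3K9ac.

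The longest domains were those that joined H3K4me3 domains or extended far beyond one. The longest, of 18199 bp, was found on chromosome 5 from 55108400 to 55126599, with 1185 reads in ctrl and 1319 after 2 h JA. It overlapped 3 H3K4me3 domains, which covered 27.5% of it. The next, 16599 bp on chromosome 3 from 26118800 to 26135399, held 1570 reads in ctrl and 1723 after JA and overlapped 2. Slightly shorter at 15399 bp, the domain on chromosome 1 from 57767800 to 57783199 held 1211 reads in ctrl and 1095 after JA, with a single H3K4me3 domain covering 14.3%. On chromosome 2 from 37488600 to 37502599, 1441 reads in ctrl and 1387 after JA were counted, and on chromosome 4 from 20968000 to 20981199, 1238 and 1452. Even the longest was far below the 57199 bp reached in other bins.

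Besides the longest domain, 3 others overlapped 3 H3K4me3 domains. The domain on chromosome 8 from 28816600 to 28827599 was covered to 52.7% and held the most reads of all 2291 domains, with 1883 in ctrl and 1750 after JA, or 171 and 159 reads per kb. The domain on chromosome 4 from 35155600 to 35168799 held 1255 reads in ctrl and 1333 after JA. The domain on chromosome 3 from 22608000 to 22620399 held 1205 and 1275. In each of these 3 domains the strongest H3K4me3 reached a log2 fold change over IgG of 3.77 to 4.21, between the median of 3.76 and the upper quartile of 4.23 for all domains with H3K4me3.

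Domains without H3K4me3 mostly lay far from any H3K4me3 domain. Their median distance from the nearest H3K4me3 domain was 48000 bp, with quartiles of 14800 and 137700 bp, and 12 of the 1091 lay within 1 kb. More than 100 kb away were 358 (32.8%). In the other bins, the median distance of such domains was 5800 bp, and 306 of 4005 lay within 1 kb. The long distances follow from the selection of sparse bins. Levels of the listed domains at different distances were close, and the part of the limit for listing in this was not tested. The median was 49.4 ctrl reads per kb for the 113 domains within 5 kb of H3K4me3, 49.1 for the 442 domains between 5 and 50 kb, and 46.9 (interval 45.7-48.6) for the 536 domains beyond 50 kb.

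The 34 domains in bins without any H3K4me3 midpoint had a median of 47.0 ctrl reads per kb, close to the other domains without H3K4me3. The one with the most 2 h JA reads lay on chromosome 6 from 31453400 to 31462599 and held 588 reads in ctrl and 542 after JA. On chromosome 1, a pair of domains at 33786400 to 33792599 and 33716600 to 33724199 held 349 and 249 reads in ctrl and 342 and 279 after JA. A domain on chromosome 7 from 45541400 to 45548199 held 276 reads in ctrl and 281 after JA, and a domain on chromosome 12 from 17078000 to 17082799 held 281 and 273. The ctrl level of these 5 domains was between 32.8 and 63.9 reads per kb, below the median of the domains with H3K4me3.

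The most isolated domain, on chromosome 3 from 37387200 to 37389399, lay 938 kb from the nearest H3K4me3 domain and held 106 reads in ctrl and 111 after JA. The next, on chromosome 9 from 21104400 to 21105799, lay 931 kb away. It held 166 reads in ctrl and 203 after JA, or 119 and 145 reads per kb, which is among the highest ctrl levels without H3K4me3. The nearest listed H3K9ac domain was 1252 kb from it. A domain on chromosome 6 from 31325400 to 31326399, 880 kb from H3K4me3, held 53 reads in ctrl and 62 after JA.

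**Figure D3:**
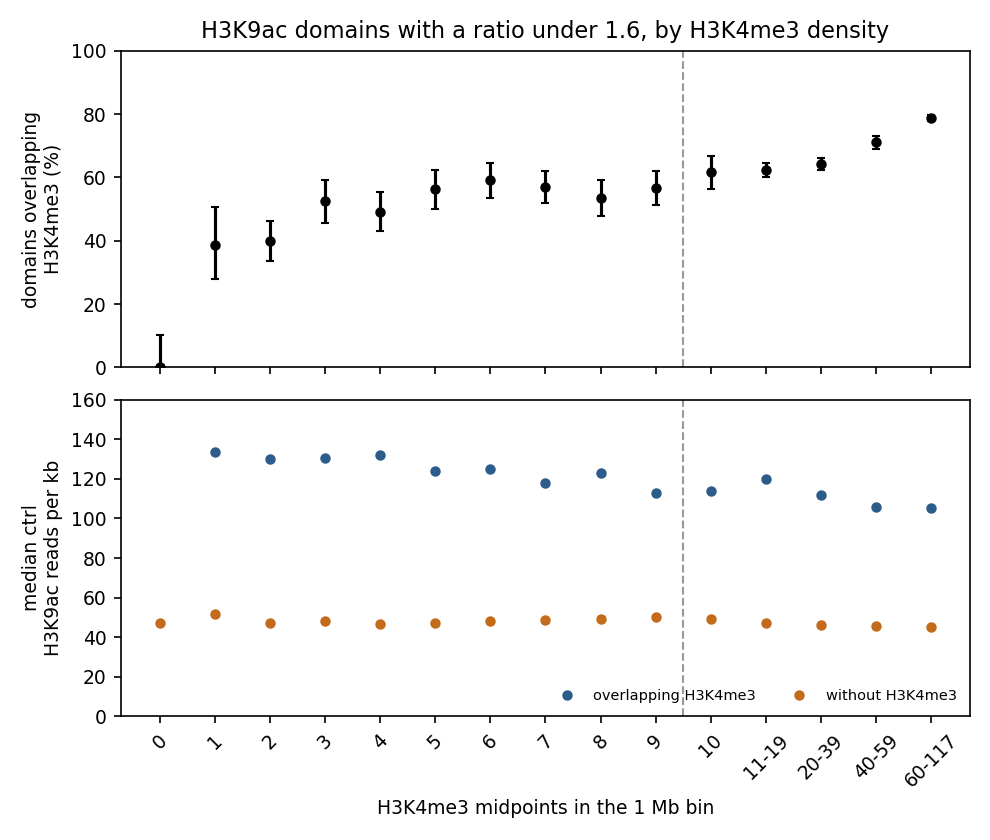
H3K9ac domains with a ratio under 1.6, grouped by the number of H3K4me3 midpoints in their 1 Mb bin (horizontal axis, with the limit of 10 as a dashed line). The upper panel gives the percentage overlapping H3K4me3 with 95% Wilson intervals over domains, and the lower panel the median ctrl H3K9ac reads per kb with (blue) and without (orange) H3K4me3, which stays between 45.03 and 51.9 without H3K4me3 in every group.

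Values on both sides of the limit of 10 H3K4me3 midpoints were close. In the 27 bins with 9 midpoints, just inside the limit, 180 of 317 domains under the ratio of 1.6 overlapped H3K4me3 (56.8%), and in the 30 bins with 10, just outside, 204 of 330 did (61.8%). The median log2 fold changes of these groups were 0.34 and 0.32, and the median size was 2999 bp in both. Over the whole range of H3K4me3 density the level of listed domains without H3K4me3 hardly moved, with a median of 47.0 ctrl reads per kb in bins without H3K4me3 midpoints and 45.03 in bins with at least 60. Regions with too few reads to be listed are missing from these medians, and the part of this in their closeness was not tested. The level of domains with H3K4me3 was 133 ctrl reads per kb in bins with 1 midpoint and 105 in bins with at least 60, where domains were longer and more often joined several H3K4me3 domains.

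The domains were listed by epic2 as higher after 2 h of JA, at an FDR of at most 0.05, but their read counts in the 2 H3K9ac libraries were close. Together they held 659785 ctrl reads and 701892 2 h JA reads, which was 7.34% and 7.43% of the reads in all listed domains. The median ratio of 2 h JA to ctrl reads was 1.07, with quartiles of 1.02 and 1.15, and 412 of the domains (18.0%) held no more reads after JA than in ctrl, against 25.4% of all listed domains. The median log2 fold change in the deposited table was 0.34, with quartiles of 0.26 and 0.43. A value of 0.5 or more was found for 311 of the 2291 (13.6%), against 12.9% of all listed domains. The ratio was part of the selection, so these values describe the set only. Under the same ratio elsewhere, 27.1% held no more reads after JA and 10.8% were at 0.5 or more. The sets differ in depth, with medians of 240 ctrl reads here and 385 elsewhere, and in the share overlapping H3K4me3. In the quartile of the set with the fewest ctrl reads, 1 of 581 domains held no more reads after JA. In that with the most it was 181 of 571. At 0.5 or more were 19.1% here and 22.4% elsewhere without H3K4me3, and 8.58% and 6.57% with it. The part of depth and overlap in this comparison was not tested.

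**Figure D4:**
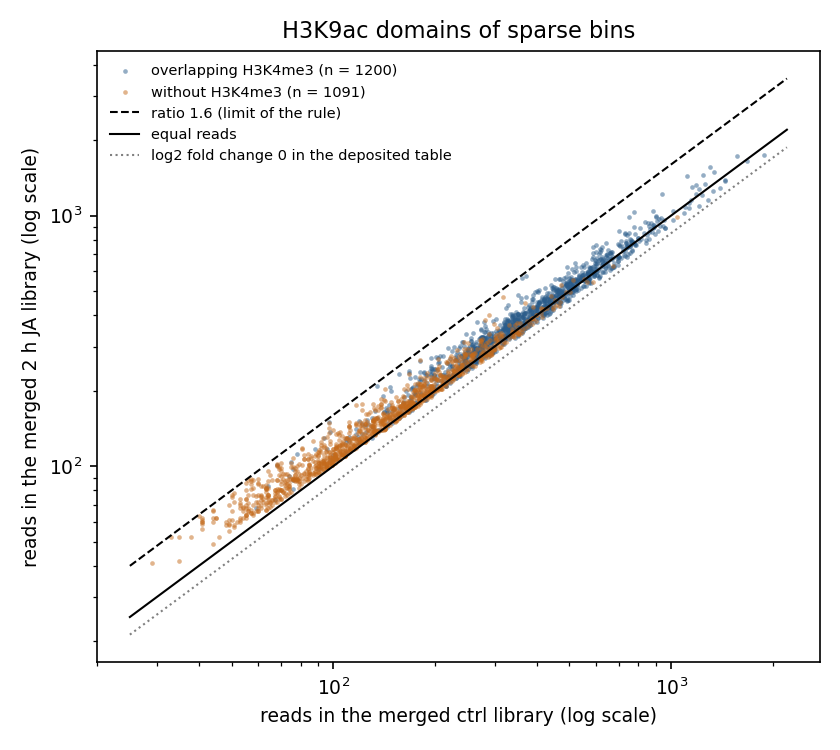
Reads of the 2291 domains in the merged ctrl library (horizontal axis, log scale) and the merged 2 h JA library (vertical axis, log scale), with H3K4me3 in blue (1200) and without in orange (1091). All points lie below the dashed line of the selected ratio of 1.6 and above the dotted line at which the deposited log2 fold change is 0, and most lie just above the solid line of equal reads.

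The constant of 0.23 for the library sizes is included in every one of these fold changes. With totals of uniquely aligned reads, every log2 fold change moved by -0.13 and the median became 0.20. With the reads over all listed H3K9ac domains as totals, it moved by -0.30, the median became 0.03, and 913 of the 2291 domains fell to 0 or below. All listed domains had been called as higher after JA, so these totals center their fold changes near 0 by construction. On that last scale, the 95% Clopper-Pearson interval of the counts lay above 0 in 120 domains (5.24%, against 7.99% of all listed domains) and below 0 in 38. The share of all listed domains includes those at or above the ratio of 1.6, which the selection left out, and among domains under that ratio in the other bins it was 6.45%. On the scale of the deposited table the interval included 0 in 745 domains (32.5%, against 23.7% of all listed domains), although each was listed at an FDR of at most 0.05. These intervals cover counting error of the merged libraries only. The number of domains with a log2 fold change above 0 thus depended on the scaling. It was 2291 with totals of aligned reads and 2268 with totals of uniquely aligned reads, both grouped by title. With totals over all listed H3K9ac domains it was 1378. Whether H3K9ac in these domains was higher after JA was not tested. In bulk seedlings, a change in the share of cells carrying the mark and a change in the mark per cell cannot be told apart.

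Domains without H3K4me3 had a median log2 fold change of 0.36 (quartiles 0.28 and 0.46), and domains with H3K4me3 0.31 (quartiles 0.24 and 0.40). Of the domains without H3K4me3, 208 of 1091 (19.1%) were at 0.5 or more, and of those with it 103 of 1200 (8.58%). Among all listed domains the share was 12.9%. Outside the sparse bins, under the same ratio, this was 898 of 4005 (22.4%) without and 712 of 10837 (6.57%) with H3K4me3. Read depth moved with this difference. The median domain held 133 ctrl reads without and 360 with H3K4me3, and the lowest log2 fold change at which a domain was listed rose from 0.08 in the quartile with the most ctrl reads, from 382 to 1883, to 0.23 in the quartile with the fewest, from 29 to 131. The median half-width of the count interval was 0.18 and 0.42 on the log2 scale in these quartiles. The part of depth in the difference was not tested. In the other bins the medians were 0.35 without and 0.29 with H3K4me3.

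The domains with the lowest FDR combined many reads with a ratio near 1.3. On chromosome 7 from 23716200 to 23725199, 1117 reads in ctrl and 1437 after JA gave 0.60 on the log2 scale (interval 0.48-0.71, FDR of epic2 3.69e-47). The domain on chromosome 3 from 21187600 to 21200799 held 937 reads in ctrl and 1219 after JA, a log2 fold change of 0.61 (interval 0.49-0.74). The domain on chromosome 8 from 17128600 to 17137999 held 776 reads in ctrl and 1030 after JA, a log2 fold change of 0.64 (interval 0.51-0.78). Each of them overlapped H3K4me3. In the domain on chromosome 3 it was weak, with a log2 fold change over IgG of 1.77, and covered 10.6% of the domain. With the scaling by reads over all listed domains, these log2 fold changes are lower by 0.30.

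Just inside the limit of 1.6, the domains with the highest ratios were short and held few reads. The first, 599 bp on chromosome 12 from 54148000 to 54148599 held 33 reads in ctrl and 52 after JA, a ratio of 1.58 and a log2 fold change of 0.89 (interval 0.23-1.56). On chromosome 11 from 46803400 to 46804399 the reads were 40 and 63, and on chromosome 7 from 52305600 to 52307199 they were 56 and 88. None of these overlapped H3K4me3. Just outside the limit, a domain on chromosome 2 from 42298200 to 42304199 held 279 reads in ctrl and 447 after JA. It was followed by domains on chromosome 1 from 18119000 to 18120999 with 54 and 87 reads, and on chromosome 12 from 21900400 to 21901399 with 38 and 62. The intervals on either side of the limit overlapped widely.

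Neighboring H3K9ac domains were far apart. The median gap from a domain of the set to the nearest listed H3K9ac domain was 22600 bp, compared with 2600 bp for domains under the same ratio in the other bins. A listed neighbor within 5 kb was found for 423 of the 2291 domains (18.5%), and for 66.2% in the other bins. No gap was shorter than 800 bp. With H3K4me3 the median gap was 24200 bp and without it 20600 bp.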

How the data were processed

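The labels describe sonication of the chromatin and the paper MNase digestion for tomato. Reads had been mapped by the authors to the Micro-Tom assembly (SLM_r2.0.pmol; Bowtie2 2.4.1). After merging of the 3 replicates per group, epic2 (0.0.52) was used for domain calling, with 2 h JA over ctrl for H3K9ac and H3K4me3 over IgG. The deposited counts are whole reads per domain in 2 merged libraries, without normalization. The deposited FDR, an adjusted p-value, is that of epic2. The deposited log2 fold change is the log2 ratio of the counts plus 1 constant per table. The deposited score is 100 times this value and was not used here, nor was the hemp table. Settings for windows, gaps, duplicates and multiply aligned reads are not given in the sources used here. Coordinates are as deposited.

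Domains, lists and tests were chosen with earlier results of these data known. The regions named are the longest, the densest with at least 100 ctrl reads, those with the most 2 h JA reads in bins without H3K4me3, those with the most H3K4me3 domains, the most isolated, those with the lowest FDR, and those next to the ratio limit. No test between conditions was possible, and none was run between sets of domains. Library totals, used only for scaling, came from the supplementary list of libraries, with its exchanged columns for depth and alignment rate set right. Intervals are 95% Clopper-Pearson for counts, Wilson for shares and binomial for medians, and since reads carry no molecular identifiers they cover counting error or spread between domains only. Functions were tested on simulated data. The genome at hand is of another species and was not used here, so no sequences are shown. The software was SciPy 1.17.1, NumPy 2.4.6 and pandas 2.3.3 in Python 3.11.15, with figures from matplotlib 3.10.9.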

Additional observations from a re-analysis of the deposited data

How the results depend on the processing

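No paired analysis was possible because the replicates were merged before deposit, and for the same reason no replicate could be left out. The median size stayed between 2799 and 2999 bp in all 8 alternatives run for it. The number of domains was 793 with a limit of 5 H3K4me3 midpoints per bin, 4338 with a limit of 20 and 1226 at an FDR of at most 0.001. In the same order, the share overlapping H3K4me3 was 44.4%, 57.1% and 68.7%, and the median was 63.5, 79.4 and 100.03 ctrl reads per kb. Bins of 2 Mb with fewer than 20 midpoints gave 54.9% and 78.1 ctrl reads per kb. H3K4me3 covered at least 50% of the domain in 30.9% of the set. The median log2 fold change was 0.39 at an FDR of at most 0.001, 0.20 with totals of uniquely aligned reads and 0.032 with totals over all listed H3K9ac domains. The causes were not tested. By construction, totals over listed domains center their fold changes near 0. Across the 8 alternatives, the median ctrl level without H3K4me3 stayed between 47.8 and 48.6 reads per kb, and that with H3K4me3 between 121 and 131. Depth limits the fold changes of single domains, whose count intervals had a median half-width of 0.26 on the log2 scale.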

Other observations

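Of the 1611 H3K4me3 domains with their midpoint in a sparse bin, 350 (21.7%) overlapped no listed H3K9ac domain, compared with 16.1% in the other bins. Their H3K4me3 was weaker, with a median log2 fold change over IgG of 2.00 against 3.72 for the 1261 with listed H3K9ac. Among the 350, 42 held more than 200 IgG reads per kb, whereas none of the 1261 did. The H3K9ac table lists domains of 2 h JA over ctrl, so that absence from it is not absence of H3K9ac.

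The 43 H3K9ac domains of sparse bins at or above the ratio of 1.6, which were not part of the set, had a median size of 1599 bp and a median of 35.5 ctrl and 68.8 2 h JA reads per kb. Of these, 9 overlapped H3K4me3 (20.9%, Wilson interval 11.4-35.2%), and their log2 fold changes of 2 h JA over ctrl reached 3.66. Their median ctrl count of 49 reads gives little precision. In the other bins, 39.1% of the 279 domains at or above this ratio overlapped H3K4me3.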
